A study of Mus musculus with 6 samples.

Results

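Transcripts of 10 genes of cellular iron handling were followed in adipocyte cultures given baicalin: those of the uptake genes Tfrc, Steap3, Slc11a2 and Slc39a14, of the storage genes Fth1, Ftl1 and Ncoa4, of the exporter gene Slc40a1, and of the iron regulatory protein genes Aco1 and Ireb2. They were picked by name from the 54532 genes of the deposited table, with the values of the only contrast of the series already known. Their levels and differences are therefore a description, and no p-value is attached to them. The cells are wild-type 3T3 cells, a mouse fibroblast line, labelled as adipocytes. The 3 baicalin samples received 200 µM of the compound, a flavone glucuronide from Scutellaria roots, and the 3 DMSO samples received the solvent. The labels read here name neither the subline, nor how the cells were differentiated, nor how long they were treated.

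Iron enters most cells bound to transferrin through the transferrin receptor and is reduced and moved out of endosomes, and what is not used is stored inside ferritin shells or exported by ferroportin. Ferritin is built from heavy chains, which oxidise iron, and light chains, which help to form the mineral core. Messages of this system carry iron-responsive elements, short hairpins bound by the iron regulatory proteins when iron is scarce: a hairpin before the coding sequence blocks translation, and hairpins behind the coding sequence of the transferrin receptor protect its message from decay. Transcription sets the amount of message in addition, and ferritin genes are known to be driven by NRF2 under oxidative stress.

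The iron-responsive elements are shown because they sort the members by the way iron is known to control them. They were searched in the untranslated regions of complete coding transcripts of GENCODE M21 (mouse assembly GRCm38) as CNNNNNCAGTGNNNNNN on the transcript strand, with the bases on both sides of the CAGTGN loop able to pair (G with T allowed). Each stretch of 29 bases is written from 5′ to 3′ as DNA, with the bulged C and the loop in capitals. In the 5′ untranslated region, one site each was found for Fth1 (chr19:9982732-9982760, plus strand), Ftl1 (chr7:45459779-45459807, minus strand) and Slc40a1 (chr1:45925465-45925493, minus strand). In the 3′ untranslated region of Tfrc 4 sites were found on the plus strand, at chr16:32631219-32631247, chr16:32631598-32631626, chr16:32631663-32631691 and chr16:32631710-32631738.
Fth1: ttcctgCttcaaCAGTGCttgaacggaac
Ftl1: gtcttgCttcaaCAGTGTttgaacggaac
Slc40a1: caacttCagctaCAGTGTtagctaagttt
Tfrc site 1: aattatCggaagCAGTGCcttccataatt
Tfrc site 2: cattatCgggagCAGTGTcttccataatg
Tfrc site 3: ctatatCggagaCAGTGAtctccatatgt
Tfrc site 4: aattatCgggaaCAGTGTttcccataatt
The Fth1 and Ftl1 sites share 26 of their 29 bases, and Fth1 and Slc40a1 share 13. The 4 Tfrc sites share 18 to 25 bases with each other. Of the tested genes, 23 of 11735 with an annotated 5′ region (0.196%) and 92 of 11775 with a 3′ region (0.781%) hold such a site. The site is in 3 of 3 complete coding transcripts of Fth1, in the only one of Slc40a1, and in 1 of 2 each of Ftl1 and Tfrc. No match with this strict pattern was found in Slc11a2, Slc39a14, Steap3, Ncoa4, Aco1 or Ireb2. This says only that the untranslated regions of their complete coding transcripts hold no such site with all stem bases paired.

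Total counts were 17598666, 18326874 and 17924970 in the baicalin libraries and 17711950, 16730594 and 17490650 in the DMSO libraries. Replicates differed by more than sampling noise (chi-square per degree of freedom 2.83 to 4.35 over 6 pairs). Whether they came from separate cultures is not stated, so errors and p-values cover only the variation among these libraries, and part or all of it may be technical. As a check of the label, 7 of 10 fat cell markers reached 1 CPM (read counts scaled by library size) in some library and Lep, Slc2a4 and Retn in none. Adipoq, the adiponectin gene, was at 0.18, 0.17 and 0.058 CPM in baicalin and 2.28, 1.77 and 0.93 CPM in DMSO, and Cidec, a lipid droplet gene, at 0.42, 0.62 and 0.52 CPM in baicalin and 6.23, 6.01 and 3.62 CPM in DMSO. Plin1 was at 5.93 ± 0.84 CPM in baicalin and 18.9 ± 2.79 CPM in DMSO, and Pparg at 13.8 ± 0.67 CPM in baicalin and 17.6 ± 1.57 CPM in DMSO. Cebpa was at 1.57 ± 0.21 CPM in baicalin and 0.98 ± 0.14 CPM in DMSO (SD, n = 3 each). The adipocyte label is thus borne unevenly by its defining transcripts, several of them low or near absent. The summed level of that list was 803 to 818 CPM in baicalin and 1804 to 1978 CPM in DMSO, nearly all of it from Lpl (491 ± 8.06 CPM in baicalin, 1443 ± 79.6 CPM in DMSO) and Fabp4 (298 ± 6.08 CPM in baicalin, 429.7 ± 37.9 CPM in DMSO; SD, n = 3 each), and that of 10 fibroblast and preadipocyte markers 10686 to 10921 CPM in baicalin and 11314 to 11939 CPM in DMSO. Of these fibroblast and preadipocyte markers 3 were higher and 6 lower in every baicalin library, against 35.1% of all tested genes on each side. Pdgfra was at 653 ± 17.4 CPM in baicalin and 1427 ± 37.2 CPM in DMSO, and Thy1 at 245 ± 4.18 CPM in baicalin and 115 ± 5.01 CPM in DMSO (SD, n = 3 each). Markers of other cell types with a large iron turnover were mostly near absent. Of 10 macrophage markers 7 stayed under 1 CPM, C1qa had no read, and the sum was 5.42 to 6.35 CPM in baicalin and 4.46 to 5.15 CPM in DMSO, with Cd68 at 2.59 ± 1.05 CPM in baicalin and 1.22 ± 0.17 CPM in DMSO (SD, n = 3 each). Of 10 erythroid markers 9 stayed under 1 CPM, Hbb-bs, Hbb-bt, Hba-a2 and Gata1 had no read, and the sum was 4.93 to 6.38 CPM in baicalin and 6.01 to 6.03 CPM in DMSO. Most of that sum came from Epor, at 5.36 ± 1.12 CPM in baicalin and 5.46 ± 0.40 CPM in DMSO (SD, n = 3 each). The part of the lower fat cell markers in the results that follow was not tested.

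Ferritin heavy chain was the most abundant transcript of all. Fth1 (ENSMUSG00000024661, chromosome 19, 9980598 to 9985098) ranked first of all genes in every library, both by reads and by FPKM (fragments scaled by gene length and library size). It was at 26027, 24916 and 24795 CPM in baicalin and at 11087, 10174 and 10894 CPM in DMSO. Every baicalin library was above every DMSO library, and the fitted ratio was 2.36-fold (log2 fold change 1.24, SE 0.04). The gene alone took 2.41% ± 0.04 of all reads in baicalin and 1.12% ± 0.05 in DMSO (SD, n = 3 each). In such bulk samples more cells of a type and more RNA per cell cannot be told apart.

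The light chain gene Ftl1 (ENSMUSG00000050708, chromosome 7, 45457944 to 45459884) was at 2861, 2787 and 2691 CPM in baicalin and 1837, 1789 and 1861 CPM in DMSO. The groups did not overlap, and the difference was smaller than that of the heavy chain, at 1.52-fold (log2 fold change 0.60, SE 0.04). The ratio of Fth1 to Ftl1 on the FPKM scale was 14.1, 13.8 and 14.3 in baicalin against 9.34, 8.80 and 9.06 in DMSO, so that the heavy chain message weighed more in each baicalin library. Ferritin reads of both genes together made up 2.68% ± 0.05 of baicalin libraries and 1.31% ± 0.05 of DMSO libraries (SD, n = 3 each).

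**Figure D1:**
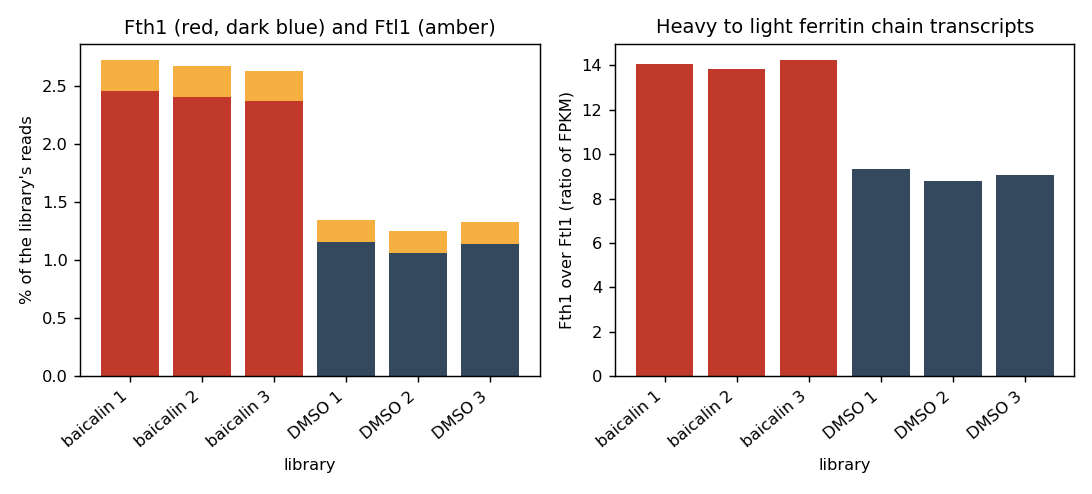
Left, percent of each library's reads from Fth1 (lower part of the bar) and Ftl1 (upper part, amber); right, ratio of Fth1 to Ftl1 FPKM, both by library, with baicalin in red and DMSO in dark blue. The Fth1 share stands at 2.37% to 2.46% in the baicalin libraries and at 1.06% to 1.16% in the DMSO libraries, and the ratio is above 13 in each baicalin library and below 10 in each DMSO library.

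Ferritin counts carry a limit from copies of the gene. Of the stretches of 50 bases in the longest Ftl1 coding transcript 90.6% also occur in transcripts of other genes, 17 in number, among them Ftl1-ps1 and Ftl2-ps, against 4.01% for Fth1. No source used here says how reads with several matches were counted, so the level of Ftl1, and with it the ratio of the chains, is uncertain. The size of that ratio also depends on the gene lengths behind FPKM, which are the same for all libraries. The largest of these rows, Ftl1-ps1, held 803, 867 and 869 reads in baicalin and 532, 513 and 561 reads in DMSO, or 1.71% as many as Ftl1 over all libraries. Its log2 fold change was 0.73. With the reads of such rows added to their parent gene, the log2 fold change of Ftl1 stayed at 0.61 and that of Fth1 at 1.24. The row Ftl2-ps had 15, 11 and 15 reads in baicalin and 5, 5 and 9 in DMSO, and the rows Fth-ps2, Fthl17f and Ftl1-ps2 held at most 5 reads in any library, while Ftmt, the mitochondrial ferritin, had none. Exons of Ftl1 overlap those of Gm10252 on the opposite strand over 355 bp, and that gene had 32 reads in all; Gm22133, which lies within the same exons, had 0.

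The cargo receptor that carries ferritin to lysosomes, Ncoa4 (ENSMUSG00000056234, chromosome 14, 32159865 to 32179855), differed in the other direction. It was at 56.1, 52.0 and 54.8 CPM in baicalin and 84.7, 81.7 and 77.6 CPM in DMSO, with no overlap, a log2 fold change of -0.58 (SE 0.05). The row Gm6768, named after its values were seen, shares 43.1% of the Ncoa4 stretches of 50 bases and had 20.8% as many reads. It was lower too, with 181, 214 and 192 reads in baicalin and 295, 307 and 305 reads in DMSO, and adding both left the log2 fold change at -0.58.

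Of the uptake genes, Slc39a14 (ENSMUSG00000022094, chromosome 14, 70303469 to 70351425) differed the most of all members. It encodes ZIP14, a carrier of iron not bound to transferrin and of zinc and manganese, known to be induced by inflammatory cytokines in liver. Its level was 938, 906 and 914 CPM in baicalin and 286, 270.1 and 285 CPM in DMSO. All baicalin libraries were more than 3 times as high as any DMSO library, and the ratio was 3.28-fold (log2 fold change 1.71, SE 0.04). Only 245 of the 13728 genes tested had a larger log2 fold change.

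The transferrin receptor gene Tfrc (ENSMUSG00000022797, chromosome 16, 32608920 to 32632794), which bears the 4 hairpins printed above, was at 123, 126 and 130 CPM in baicalin and 45.2, 51.8 and 45.8 CPM in DMSO. The groups were far apart, with a ratio of 2.65-fold (log2 fold change 1.41, SE 0.05). Steap3, the endosomal reductase that makes transferrin iron ready for transport (ENSMUSG00000026389, chromosome 1, 120190757 to 120272705), was at 143, 135 and 135 CPM in baicalin and 88.7, 94.0 and 96.2 CPM in DMSO, 1.48-fold higher (log2 fold change 0.56, SE 0.05). The endosomal transporter DMT1, encoded by Slc11a2 (ENSMUSG00000023030, chromosome 15, 100387898 to 100425072), showed the smallest difference among those that did not overlap, at 241, 248 and 241 CPM in baicalin and 200.1, 215 and 196 CPM in DMSO. Its ratio was 1.19-fold (log2 fold change 0.25, SE 0.04). Transcripts of Slc11a2 with and without an iron-responsive element are counted as 1 gene and cannot be separated here. Over 402 bp it shares exonic sequence with Gm5475 on the opposite strand, which had 51 reads in all against 23560 of Slc11a2.

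Ferroportin, the iron exporter encoded by Slc40a1 (ENSMUSG00000025993, chromosome 1, 45908068 to 45926523), was higher with baicalin as well. It was at 47.1, 47.1 and 49.0 CPM in baicalin and 28.3, 27.4 and 30.7 CPM in DMSO, without overlap, at 1.66-fold (log2 fold change 0.73, SE 0.07). Messages of uptake, of both ferritin chains and of export were thus on the higher side. Between the receptor and the exporter, the ratio of Tfrc to Slc40a1 CPM was 2.64 ± 0.04 in baicalin and 1.66 ± 0.21 in DMSO (SD, n = 3 each).

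The iron regulatory proteins differed from each other. Aco1, which encodes the cytosolic aconitase that becomes IRP1 when it lacks its iron-sulphur cluster (ENSMUSG00000028405, chromosome 4, 40143081 to 40198338), was at 49.0, 47.3 and 51.6 CPM in baicalin and 51.6, 50.2 and 45.5 CPM in DMSO. The groups overlapped, and the log2 fold change was 0.01 (SE 0.06). Ireb2, which encodes IRP2, a protein degraded in iron-replete cells (ENSMUSG00000032293, chromosome 9, 54863789 to 54912530), was at 56.6, 59.2 and 60.7 CPM in baicalin and 84.8, 91.4 and 87.4 CPM in DMSO. It was lower in every baicalin library, by 1.49-fold (log2 fold change -0.58, SE 0.05), but this direction depends on the correction for transcript composition given next.

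**Figure D2:**
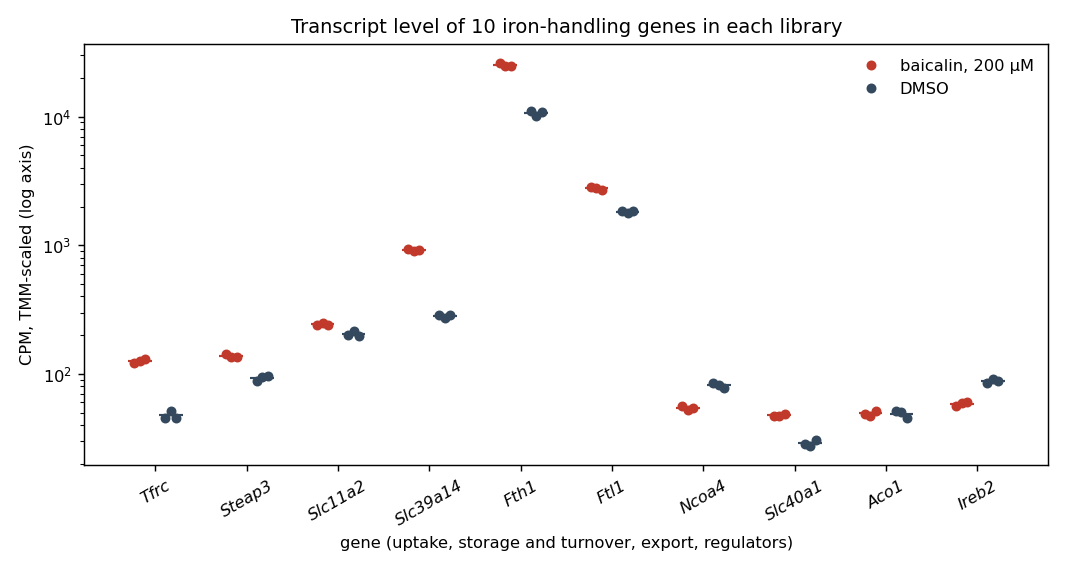
Level of each gene in each library in CPM after TMM scaling, on a log axis, with baicalin (red) left of DMSO (dark blue), points for libraries and bars for means of 3. Tfrc, Steap3, Slc11a2, Slc39a14, Fth1, Ftl1 and Slc40a1 lie higher in every baicalin library, Ncoa4 and Ireb2 lower, and Aco1 overlaps.

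All 10 members had enough reads to test. In edgeR's quasi-likelihood fit over all genes (a call is an adjusted p under 0.05 after Benjamini-Hochberg), 7 were called higher, 2 lower and 1 was not called. Among the 13728 genes tested 67.7% were called, 33.6% higher and 34.1% lower. Groups did not overlap for 70.2% of the genes tested, 35.1% on the higher and 35.1% on the lower side, against 7 and 2 of the 10 members. Since the members were chosen with this contrast known, nothing is read from these counts. Their median log2 fold change was 0.58, and that of all tested genes 0.00.

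Scaling by library size alone moved the median of all genes by -0.13 and the split of calls to 3472 higher and 5811 lower, against 4618 higher and 4676 lower with TMM. The members kept 7 higher and 2 lower calls, with Slc11a2 at 0.13. Fold changes also followed the composition of transcripts. The median log2 fold change was -0.36 in the lowest of 5 equal classes of tested genes by GC content (up to 44.3%) and 0.19 in the highest (from 55.4%). Over 5 classes by exon length it was 0.16 in the shortest and -0.23 in the longest. Ireb2 has a GC content of 38.4% and an exon length of 9479 bases, and with both trends removed its log2 fold change turned to 0.13 (SE 0.05), a call on the higher side. The same correction gave 1.91 for Tfrc (GC 39.4%), 1.01 for Slc40a1 (45.0%), -0.29 for Ncoa4 (45.0%), 0.31 for Ftl1 (57.7%) and 1.06 for Fth1 (51.9%). With it 8 members were called higher and 1 lower, beside 4566 higher and 4307 lower of all tested genes. The part of library quality or of the treatment in the trends was not tested.

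**Figure D3:**
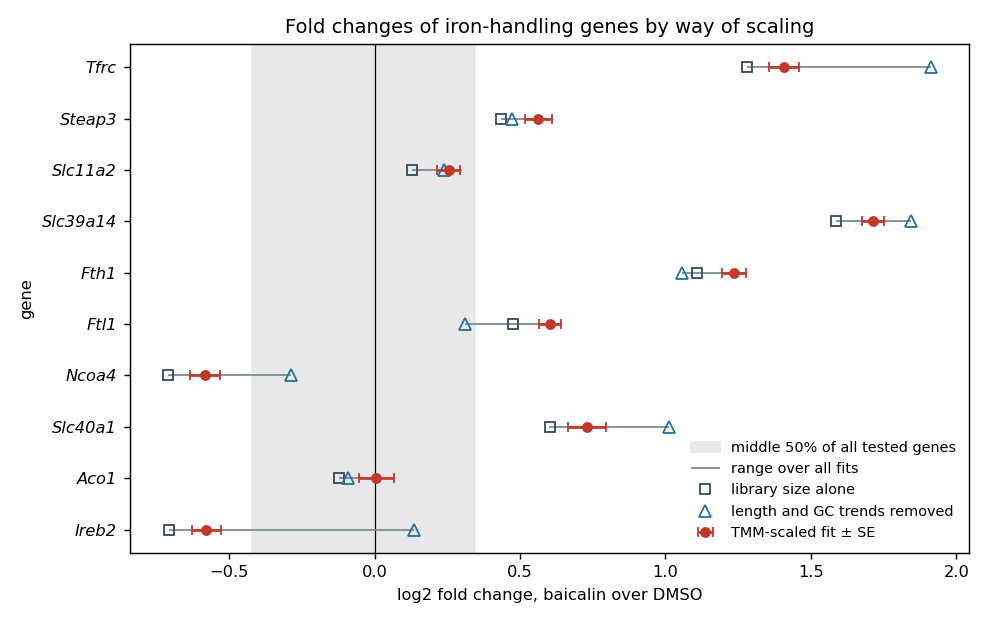
Log2 fold change of each gene, baicalin over DMSO, in the TMM-scaled fit (red, bars ± SE), with library size alone (squares) and with length and GC trends removed (triangles), grey lines spanning all fits and the shaded band the middle 50% of tested genes. Ireb2 lies at -0.58 and at 0.13 with the trends removed, and no other called member crosses 0.

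**Figure D4:**
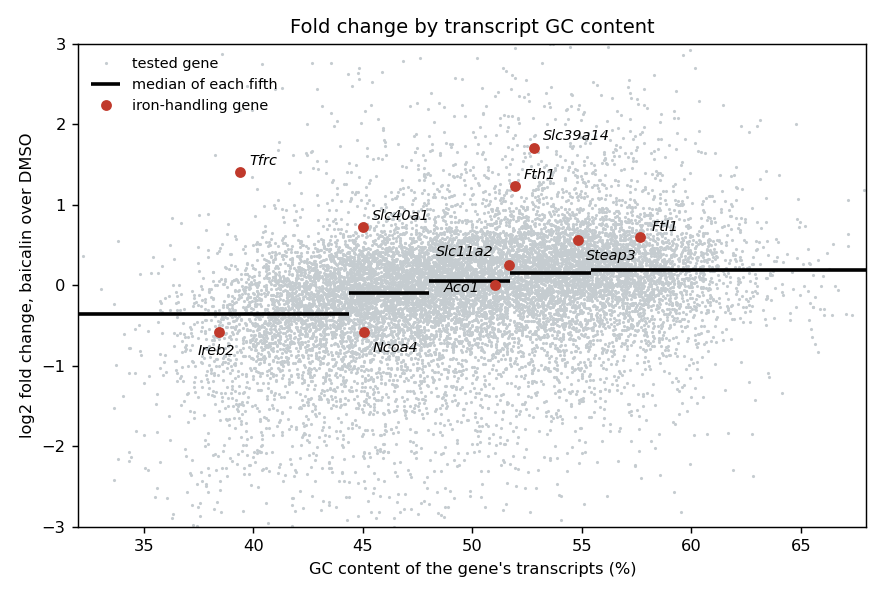
Log2 fold change, baicalin over DMSO, against the GC content of each gene's transcripts for tested genes (grey points), with black bars for the median of each of 5 equal classes and red points for the 10 iron-handling genes; 128 of 13714 genes lie outside the axes. Ireb2 (-0.58) lies near the median (-0.36) of the genes in the lowest GC class, and Tfrc (1.41), of nearly the same GC content, far above it.

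Compared per length, the order of levels on the FPKM scale changed in part between the groups. The order within a group depends on the gene lengths behind FPKM, which were not checked. The joined exons of Slc40a1 cover 9000 bases and its longest coding transcript 3370. For Ncoa4 these lengths are 9365 and 4065 bases. An order per coding transcript was not computed. In baicalin it ran from Fth1 (29675 ± 952 FPKM) and Ftl1 (2112 ± 72.4) over Slc39a14 (88.7 ± 2.07), Slc11a2 (38.9 ± 0.53), Steap3 (24.5 ± 0.93), Tfrc (20.8 ± 0.51) and Aco1 (11.2 ± 0.49) to Ireb2 (6.31 ± 0.20), Ncoa4 (5.90 ± 0.26) and Slc40a1 (5.40 ± 0.12; SD, n = 3 each). Of these neighbours, Ireb2 and Ncoa4 overlapped. In DMSO, Fth1 (12472 ± 571 FPKM) and Ftl1 (1375 ± 27.1) were followed by Slc11a2 (32.3 ± 1.60) and Slc39a14 (26.8 ± 0.87), then Steap3 (16.4 ± 0.65), Aco1 (11.0 ± 0.73), Ireb2 (9.34 ± 0.34), Ncoa4 (8.75 ± 0.40), Tfrc (7.75 ± 0.59) and Slc40a1 (3.22 ± 0.19). There Ireb2 overlapped with Ncoa4, and Ncoa4 with Tfrc. Tfrc thus stood above Aco1, Ireb2 and Ncoa4 in baicalin and below them in DMSO, and Slc39a14 stood above Slc11a2 in baicalin and below it in DMSO.

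For 7 of the 10 members RefSeq promoter windows (assembly GRCm38.p6, 250 bases before to 50 after a start site, 14 windows, some overlapping) were searched on both strands for 5 motifs. Slc40a1, Slc11a2 and Slc39a14 had no window in the table. Of the 7 genes searched, Ncoa4 held the antioxidant response core TGACNNNGC, which is in 12.4% of the 32851 windows of all genes. The metal response core TGCGCNC was found in Tfrc, Ncoa4 and Aco1 and in 15.4% of all windows, and the aryl hydrocarbon receptor core TGCGTG in Tfrc and in 8.47%. The E-box CACGTG, in 7.15% of all windows, had no match. The hypoxia element core TACGTG was found in both overlapping windows of Tfrc, at the same place (chr16:32608883-32608908, plus strand), and in 3.23% of all windows. Hypoxia-inducible factors are known to drive Tfrc, and for that reason its site is shown with the core in capitals.
Tfrc promoter: tcggtaggtgTACGTGcggaaggaag
A match is a description, and the windows do not cover distant enhancers. The shares are of single windows, while members are counted by gene over 14 windows. A gene with several windows can match more often, so these are unlike measures.

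The wider pathway was described with 6 lists of 99 further genes, chosen by role but with earlier results of these data known. Their adjusted p-values are therefore a description as well. Beside the counts of calls in each list stands the share over all 13728 tested genes, 33.6% higher and 34.1% lower. The lists were not tested against that share. Of 21 other genes of iron uptake and release 15 were tested, with 9 higher, 4 lower and a median log2 fold change of 0.43. Lipocalin 2, a secreted protein that binds iron-laden siderophores and is known as an acute-phase protein, rose most among the genes of this list with a mean of at least 5 CPM. Lcn2 was at 8616, 7820 and 7959 CPM in baicalin and 1098, 908 and 1031 CPM in DMSO, 8.03-fold higher (adjusted p = 9.75e-11). Steap1, a relative of Steap3, rose 4.51-fold, to 59.0 ± 2.87 CPM in baicalin against 13.1 ± 0.96 CPM in DMSO (SD, n = 3 each, adjusted p = 1.41e-31). Ceruloplasmin, the copper-bearing ferroxidase that works with ferroportin, rose as well. Cp was at 1636 ± 62.8 CPM in baicalin and 676 ± 15.8 CPM in DMSO (SD, n = 3 each), 2.42-fold higher (adjusted p = 3.24e-34). Its exons overlap those of Hps3 on the opposite strand, which had 2.32% as many reads.

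Of the genes that fell there, Slc22a17, reported as a receptor of lipocalin 2, had a log2 fold change of -0.71 (adjusted p = 3.19e-05) at only 5.18 ± 0.83 CPM in baicalin and 8.46 ± 0.64 CPM in DMSO (SD, n = 3 each). Mcoln1, a lysosomal channel that releases iron, had -0.56 (adjusted p = 2.21e-16). The membrane ferroxidase gene Heph had -0.22 (adjusted p = 0.00145), a call lost at 0.039 with length and GC trends removed (adjusted p = 0.583). The serum carrier transferrin (Trf), its liver receptor Tfr2, Cybrd1, Cd163, Hephl1 and Ltf were too low to test.

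Among 9 iron chaperones and genes of ferritin and IRP2 turnover 8 were tested, with 4 higher, 2 lower and a median of 0.12. Fbxl5, the iron-sensing part of the ubiquitin ligase that degrades IRP2, was at 242, 268 and 265 CPM in baicalin and 133, 142 and 128 CPM in DMSO, 1.92-fold higher (adjusted p = 1.54e-23). Its exons overlap over 98 bp those of Bst1 on the opposite strand, which rose 20.9-fold and had 10.3% as many reads, so that its value is uncertain. Pcbp1, which hands iron to ferritin, had a log2 fold change of 0.29 (adjusted p = 2.8e-09), and 0.00 with the trends removed. Herc2, a ligase reported to act on Ncoa4, had 0.26 (adjusted p = 9.96e-07). Tax1bp1, an autophagy receptor that works with Ncoa4, had -0.42 (adjusted p = 1.15e-13) but 0.095 with the trends removed. Cul1, the scaffold of the same ligase family as Fbxl5, had -0.14 (adjusted p = 0.00406), a call lost at -0.10 without a low-count filter (adjusted p = 0.0736) and at -0.05 with the trends removed. With the trends removed no gene of this list was called lower, beside 4307 of all 13728 tested genes.

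Hepcidin, the hormone that removes ferroportin from the membrane, was not detectable: Hamp and Hamp2 had no read in any of the 6 libraries. This allows at most 0.179 CPM in the shallowest (3 counts over library size alone, without the TMM factor, counting error only). Of 10 genes of hepcidin and its regulators 3 were tested, with 2 higher and none lower (median 0.18). The co-receptor gene Neo1 had a log2 fold change of 0.18 (adjusted p = 0.000485), a call lost with library size alone (0.05, adjusted p = 0.324).

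Genes of mitochondrial iron use and iron-sulphur cluster assembly were split as 16 higher and 4 lower of 31 tested, with a median of 0.14. The scaffold gene Nubp1 rose 1.76-fold (adjusted p = 1.72e-09), but its exons overlap those of Tvp23a on the opposite strand, which had 51.7% as many reads, so it is uncertain. Hspa9, the mitochondrial chaperone of cluster transfer, rose to 795 ± 13.9 CPM in baicalin against 466.5 ± 24.5 CPM in DMSO (SD, n = 3 each, 1.70-fold, adjusted p = 3.79e-24). Glrx5, a glutaredoxin that passes clusters on, rose 1.70-fold (adjusted p = 1.07e-16). The ferredoxin gene Fdx1 fell by 0.34 on the log2 scale (adjusted p = 3.19e-05), the co-chaperone gene Hscb by 0.34 (adjusted p = 0.00118) and Isca1, a late assembly factor, by 0.34 (adjusted p = 7.21e-08). The call of Isca1 was lost with the trends removed (-0.10, adjusted p = 0.0796). With library size alone 7 genes of this list were called lower, beside 5811 of all 13728 tested genes.

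Heme metabolism had 20 tested genes, 13 of them higher and 2 lower, and a median log2 fold change of 0.25. Hmox1, the heme oxygenase that frees iron from heme, was at 2230, 2128 and 2132 CPM in baicalin and 453, 433 and 466 CPM in DMSO, a log2 fold change of 2.26 (adjusted p = 8.34e-45). Blvrb, a biliverdin reductase, rose 2.74-fold (adjusted p = 1.91e-31) and Cpox, which acts late in heme synthesis, 1.92-fold (adjusted p = 1.31e-17). Ppox, the next enzyme of the pathway, had a log2 fold change of -0.48 (adjusted p = 0.000115), but its exons overlap over 791 bp those of B4galt3 on the opposite strand, which had 88.5% as many reads, so it is uncertain. Uros fell by 0.28 (adjusted p = 0.0252), and the adjusted p passed 0.05 when 1 library was left out: it was 0.104 without baicalin replicate 1, 0.0529 without baicalin replicate 3, 0.0917 without DMSO replicate 2 and 0.0957 without DMSO replicate 3. With DESeq2 it was 0.135.

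Other messages reported to bear an iron-responsive element did not share a direction. Of 7 genes 5 were tested, with 2 higher and 1 lower (median -0.03). Pfn2, an actin regulator, rose 1.98-fold (adjusted p = 2.8e-18). Cdc42bpa, a kinase gene, had a log2 fold change of -0.27 (adjusted p = 1.87e-05) and 0.38 with the trends removed. With that correction 4 of the 5 genes were called higher and none lower. Over all 13728 tested genes it gave 4566 higher and 4307 lower calls.

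**Figure D5:**
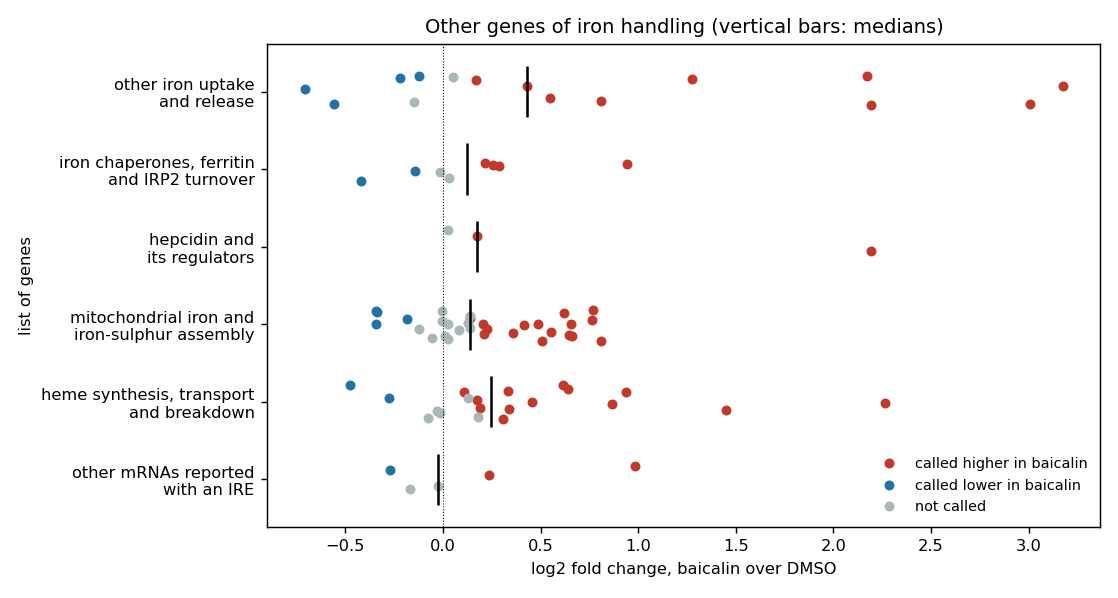
Log2 fold change, baicalin over DMSO, of each tested gene in 6 lists of iron-related genes, coloured by its call, with vertical bars for list medians. The medians run from -0.03 for other mRNAs reported with an iron-responsive element (IRE) to 0.43 for other genes of iron uptake and release, where Lcn2 stands at 3.01 and Steap1 at 2.17.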

How the data were processed

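Poly-A RNA of 6 samples was sequenced, per the labels' protocols. The authors counted reads per gene with featureCounts 1.5.0-p3 and turned the counts into FPKM with the gene lengths, as the series design text states. The submitters' processing notes name mm10 as build. No aligner, annotation or strand setting is given in the sources used here. All sample columns were matched. GENCODE M21 gave coordinates, GC content and overlaps for 54495 of 54532 gene IDs.

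Counts were tested with edgeR 4.0.16 (R 4.3.3): filterByExpr, TMM scaling, robust quasi-likelihood fit with treatment as the only term, and Benjamini-Hochberg adjustment over 13728 genes. SEs are the log2 fold change over the root of the F statistic. The test was checked on simulated counts in which few genes changed and no length or GC trend was put in. That check does not cover data such as these, where 67.7% of the genes tested were called. CPM values carry TMM factors of 0.945 to 0.967 in baicalin and 1.04 to 1.05 in DMSO. Members and lists were chosen with earlier results of these data known. Beside the members, up to 3 called genes in each direction per list with a mean of at least 5 CPM are named, and 1 gene that this rule takes is not reported here. Alternatives were DESeq2 1.42.0, limma-voom (limma 3.58.1), RLE factors, library size alone, no filter or a stricter one (1 CPM or more in each of the 3 libraries of either group), the replicate block, log2(FPKM + 1) and log2(FPKM + 0.1), and leaving out each library. Removal of length and GC trends (lowess, span 0.3) and summing rows that share at least 50 stretches of 50 bases with a member were added after seeing the data.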

Additional observations from a re-analysis of the deposited data

How the results depend on the processing

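The 9 called members kept their direction and call, and Aco1 was not called, under DESeq2, limma-voom, RLE factors, library size alone, both other filters, the FPKM scales and each left-out library, with 7 higher and 2 lower calls in each. Their log2 fold changes ranged over all fits from 1.06 to 1.27 for Fth1, from 0.31 to 0.64 for Ftl1, from 1.28 to 1.91 for Tfrc and from 1.59 to 1.84 for Slc39a14. Removal of the length and GC trends, added after seeing the data, turned Ireb2 to 0.13 and left 1 member called lower. Over all tested genes 4566 were then called higher and 4307 lower. The same correction turned Heph to 0.039, Tax1bp1 to 0.095 and Cdc42bpa to 0.38, left 0 lower calls among the chaperones and turnover genes, and gave 4 higher and 0 lower calls among the other mRNAs with an iron-responsive element. The cause was not tested.

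Without a low-count filter 1 chaperone or turnover gene and 1 heme gene were called lower. With library size alone 1 hepcidin regulator was called higher, and 7 iron-sulphur genes and 4 heme genes lower. Over all tested genes that scaling gave 3472 higher and 5811 lower calls. Heme genes called lower numbered 1 with DESeq2 and 0 with log2(FPKM + 1) without a filter. Leaving out 1 library gave 1 to 2 lower calls among heme genes and 1 to 2 among the other mRNAs with an iron-responsive element, where the count was 2 without baicalin replicate 1; it was 1 among heme genes without baicalin replicate 1 or 3 or DMSO replicate 2 or 3. For the heme list the causes were not tested.

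Deviations of same-numbered libraries from their group means correlated at 0.03, 0.04 and -0.0024, and those of differently numbered libraries at -0.058 to 0.026. The numbers thus gave no sign of pairing, which does not exclude it, since paired samples need not share such deviations. With the replicate number as a block the log2 fold change of Fth1 was 1.24, that of Tfrc 1.41 and that of Ireb2 -0.58, and no call given here changed. At these depths a gene without reads may be present at up to 0.179 CPM, scaled by library size alone.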

Other observations

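The naming rule left 9 tested genes of the list of other iron uptake and release without values, and these were described after their values were seen. Scara5, a ferritin receptor, was at 863, 805 and 818 CPM in baicalin and 639.8, 570.2 and 636 CPM in DMSO (1.35-fold higher, edgeR adjusted p = 1.36e-12). Lrp1, through which heme bound to hemopexin is taken up, was at 5408 ± 167 CPM in baicalin and 3697 ± 78.8 CPM in DMSO (SD, n = 3 each, 1.46-fold, adjusted p = 1.21e-18). The metalloreductase gene Steap2 rose 1.76-fold (adjusted p = 1.33e-24). Its relative Steap4 fell, to 233 ± 4.19 CPM in baicalin against 254 ± 6.17 CPM in DMSO (SD, n = 3 each, log2 fold change -0.12, adjusted p = 0.00468). Snx3, a sorting nexin that recycles the transferrin receptor, had a log2 fold change of 0.17 (adjusted p = 0.000902). Slc39a8, a relative of Slc39a14 that also carries iron, was not called (-0.15, adjusted p = 0.257), and neither was Exoc6, an exocyst gene (0.05, adjusted p = 0.722). From the heme list, Slc48a1, which moves heme out of endosomes and lysosomes, rose 1.82-fold (adjusted p = 4.4e-27). Over 29 bp Slc48a1 shares exonic bases with Hdac7 on the other strand, which had 36.3% as many reads.

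The other genes of the uptake list were low. Hfe, a partner of the transferrin receptor, was at 3.97, 4.01 and 4.02 CPM in baicalin and 0.76, 1.32 and 0.55 CPM in DMSO (log2 fold change 2.19, SE 0.27, adjusted p = 6.12e-10). Slc11a1, an iron transporter of phagosomes known from macrophages, was at 1.02, 2.15 and 1.98 CPM in baicalin and 0.16, 0.29 and 0.11 CPM in DMSO (log2 fold change 3.17, SE 0.46, adjusted p = 3.77e-08), at levels where few reads carry the value. Of the 10 macrophage markers, Adgre1, Ptprc, Itgam, Marco, C1qa, Cd163 and Mrc1 stayed under 1 CPM in all libraries. Cd68 rose, at 2.17, 1.81 and 3.79 CPM in baicalin and 1.03, 1.26 and 1.37 CPM in DMSO (log2 fold change 1.08, adjusted p = 0.00106). Csf1r was at 1.08, 1.07 and 1.11 CPM in baicalin and 0.76, 0.63 and 0.99 CPM in DMSO (0.45, adjusted p = 0.268), and Lyz2 at 1.69 ± 0.35 CPM in baicalin and 2.32 ± 0.32 CPM in DMSO (SD, n = 3 each, -0.46, adjusted p = 0.122). The part of these markers in the value of Slc11a1 was not tested.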
